A study of Mus musculus with 6 samples.

Results

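Dendritic cells were 86 of the 53526 mitral valve barcodes kept from 6 single-cell libraries, which is 0.161% (95% exact Clopper-Pearson interval 0.129 to 0.198%). They were picked by their transcripts. A barcode needed at least 300 genes, at most 10% mitochondrial transcripts, at least 2 unique molecular identifiers (UMIs, each a counted transcript molecule) summed over Flt3, Cd209a, Xcr1, Clec9a, Ccr7 and Siglech, and at least 5 UMIs of Cd74. It also had to hold fewer than 5 UMIs of the macrophage complement genes C1qa, C1qb and C1qc, none of the T and B cell genes Cd3e, Cd3d and Cd79a, and less than 0.5% of its UMIs from the fibroblast genes Dcn, Col1a1 and Col1a2. The valves came from K/B.g7 mice, labelled as inflamed, and from B.g7 mice, labelled as controls, at 3, 8 and 25 weeks, with 1 droplet library of sorted live cells for each genotype and age. K/B.g7 mice bear a T cell receptor transgene called KRN, which leads to autoantibodies, arthritis and inflamed valves, and B.g7 mice lack it. Both genotypes carry the g7 haplotype of the major histocompatibility complex (MHC), which includes the class II molecule that presents the self peptide seen by KRN T cells. How many mice were pooled in a library is not given in the sources used here, so the tests measure the spread between libraries, and the 3 ages stand in as replicates of a genotype.

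Dendritic cells take up antigen in tissues, load it on MHC molecules and present it to T cells. Type 1 conventional dendritic cells (cDC1) depend on Irf8 and Batf3, carry the chemokine receptor Xcr1 and the dead-cell receptor Clec9a, and are known for presenting material from other cells on MHC class I. Type 2 cells (cDC2) carry lectins such as Cd209a and Mgl2 and mainly present to CD4 T cells. Both kinds can mature, turn on the chemokine receptor Ccr7 and leave through lymphatics for the draining lymph node.

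The K/B.g7 libraries held 6, 35 and 14 dendritic cells at 3, 8 and 25 weeks, and the B.g7 libraries held 7, 9 and 15. The whole libraries held 29612970, 45002210 and 69152541 UMIs in K/B.g7 valves and 15196750, 29876036 and 54850494 UMIs in B.g7 valves. Summed over dendritic cells alone, 27101, 289719 and 56299 UMIs were left in K/B.g7 valves and 29474, 77409 and 109576 in B.g7 valves. One UMI in the smallest of these sums was therefore worth 36.9 CPM (counts scaled to a total of 1000000, relative to all UMIs of the summed cells), and in the largest 3.45 CPM. The median dendritic cell held 4900, 8573 and 3802 UMIs in K/B.g7 valves and 5134, 8364 and 7294 UMIs in B.g7 valves. Pairs of libraries had 6 to 73 barcodes in common, none of them a dendritic cell in both.

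The genes that set the gate were carried by different cells. Of the 86 cells, 43 had Cd209a, 32 had Ccr7, 21 had Flt3 (the receptor for the growth factor that dendritic cells need), 19 had Xcr1, 18 had Clec9a and 4 had Siglech, a marker of plasmacytoid dendritic cells. Each had Cd74, the MHC class II chaperone, with a median of 143 UMIs. These values follow from the gate and are a description. In 13271 fibroblast barcodes of the same libraries, which should lack these genes, at most 0.0603% had a UMI of any one of the 5 genes Flt3, Cd209a, Xcr1, Clec9a and Ccr7, at a median of 3676 UMIs against 6836 in dendritic cells. The pan-leukocyte gene Ptprc (CD45) was found in 66 of the 86. Outside the gate, the integrin gene Itgax (CD11c) was found in 22, the transcription factor gene Bcl11a in 12 and Zbtb46, a defining factor of conventional dendritic cells, in 9. The 17 cells that passed with exactly 2 gate UMIs had a median of 45 UMIs of Cd74, and 10 of them held at least 1 of the other dendritic cell markers that the gate did not use. The 37 barcodes left outside with 1 gate UMI had a median of 79 UMIs of Cd74, and 16 of them held such a marker, whereas the 69 cells with 3 or more had a median of 157 and 52 held one.

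A few cells went against the name. Ccr7 is also a gene of B cells, and 7 of the cells picked through Ccr7 held 4 to 24 UMIs of B cell genes, with the immunoglobulin gene Igkc in all 7, Ighm in 4 and Ms4a1 (CD20) in 3. They were small, with a median of 1123 UMIs, and only 1 of them had Cst3, which was found in every other Ccr7 cell. Spi1, Fcer1g and Il1b had no UMI in these 7. They were spread over all libraries, with 1, 1 and 2 in K/B.g7 valves and 1, 1 and 1 in B.g7 valves. The only cell led by Siglech, from the B.g7 valve at 8 weeks, had 30 UMIs of Ly6d, 14 of Cox6a2, 18 of Irf8 and 11 of Tcf4, which are genes of plasmacytoid cells, together with 16 of Trac, the T cell receptor alpha constant gene. Leaving out these 8 cells, the only ones with 2 or more B cell UMIs, left 78, namely 5, 34 and 12 in K/B.g7 libraries and 6, 7 and 14 in B.g7. Genes of neutrophils and of mast cells or basophils were at 0 in all dendritic cells. Of the 6 monocyte genes 5 were detected, in 55 of the 86 cells and with 2 or more UMIs in 42, summing to 184 to 659 CPM in K/B.g7 libraries and 411 to 1154 CPM in B.g7. The most widespread was the chemokine receptor gene Ccr2, in 40 cells, whereas Ly6c2 was in 4 and Chil3 in none. Of the 5 genes of natural killer or innate lymphoid cells Il7r alone was detected, in 29 cells. Of the 10 macrophage genes 8 were detected, summing to 53.3 to 258 CPM in K/B.g7 libraries and 63.9 to 204 CPM in B.g7 valves. Of the 6 T cell genes Cd3g, Trac and Lck were detected, and Trbc2 was at 0, as were Cd3e and Cd3d through the gate.

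**Figure D1:**
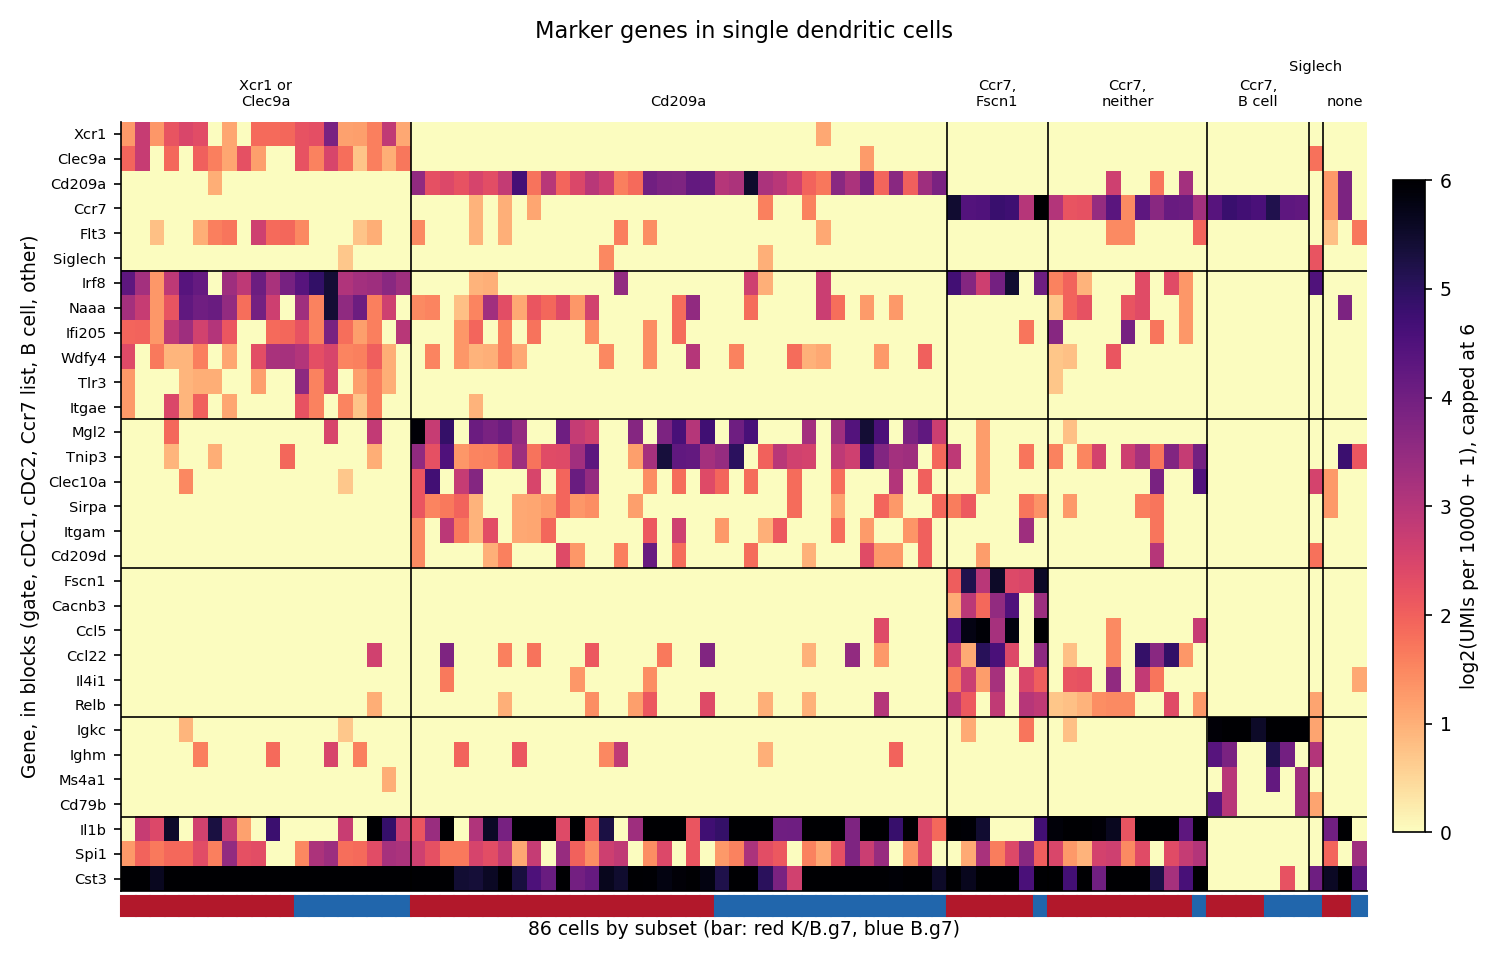
The heat map shows log2 of UMIs per 10000 plus 1, capped at 6, for each of the 86 dendritic cells (columns, grouped by leading gate gene, with K/B.g7 in red left of B.g7 in blue within each group) and for the gate genes and markers (rows, in blocks by list). The cDC1 markers fill the Xcr1 or Clec9a columns, Mgl2 and Tnip3 the Cd209a columns, Fscn1 is found in 7 of the 25 Ccr7 columns, and Igkc is strongest in the 7 columns with B cell transcripts.

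Each cell was placed by whichever gate gene led. Xcr1 and Clec9a led in 20 cells, Cd209a in 37, Ccr7 in 25 and Siglech in 1, and 3 cells had a tie or Flt3 alone. Their median depths were 8790.5 UMIs for the Xcr1 or Clec9a cells, 6779 for the Cd209a cells and 4899 for the Ccr7 cells. The markers that were not part of the gate were then read in each subset as a description, since the same cells set the grouping.

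The 20 Xcr1 or Clec9a cells matched the cDC1 list. Of 12 cDC1 genes outside the gate, 11 had their highest CPM in this subset, with summed levels of 3745 CPM against 648 in Cd209a cells and 1617 in Ccr7 cells. Irf8, the transcription factor on which cDC1 depend, was at 1088 CPM and in 19 of the 20 cells, against 59.7 CPM in Cd209a cells and 574 in Ccr7 cells. Batf3, its partner factor, was in 14 of the 20 at 147 CPM, against 63.6 in Cd209a cells and 110 in Ccr7 cells. Naaa, a lysosomal amidase, stood at 894 CPM against 179 in Cd209a cells and 103 in Ccr7 cells. Wdfy4, which is needed for cross-presentation, had 218, 75.6 and 29.4 CPM in the same order. Tlr3, a sensor of double-stranded RNA, was found in 11 cDC1-like cells, in none of the 37 Cd209a cells and in 1 Ccr7 cell. Itgae (CD103) was in 10 of the 20 and in 1 other cell. Cd207 (langerin) in 9 cells, Gcsam in 8 and the chemokine receptor Cxcr3 in 8 were detected in this subset alone among the 3. None of the 20 had a Ccr7 UMI.

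The 37 Cd209a cells matched the cDC2 list in part. Of 13 genes outside the gate, 7 had their highest CPM in this subset, 2 in cDC1-like cells and 3 in Ccr7 cells, and Clec4a4 had no UMI. The summed list was at 2895 CPM, against 406 in cDC1-like cells and 978 in Ccr7 cells. Mgl2 (CD301b), a galactose-binding lectin, led with 1090 CPM and 25 of 37 cells, against 58.8 and 14.7 CPM. Tnip3, an inhibitor of NF-kB signalling, had 736 CPM and 32 cells, against 23.5 and 301 CPM. The lectins Clec10a (298 CPM), Clec4b1 (358 CPM) and Cd209d (115 CPM) were also highest here. Sirpa, the cDC2 surface receptor for CD47, was in 17 Cd209a cells and 7 Ccr7 cells and in no cDC1-like cell. Irf4, the cDC2 transcription factor, was sparse, with 6 Cd209a cells and 3 Ccr7 cells. Il1b, which encodes interleukin 1 beta, was in 35 of the 37 at 7242 CPM, against 1405 CPM in cDC1-like cells and 6683 in Ccr7 cells. Reads of close relatives such as Cd209a and Cd209d, or Mgl2 and Clec10a, may have been shared in counting, so these lectins are uncertain at the level of single genes.

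The 25 cells led by Ccr7 were not one kind of cell. Besides the 7 with B cell transcripts, 7 held Fscn1, the actin bundler of migrating dendritic cells, and 11 had neither. The Fscn1 cells carried 3 to 41 UMIs of Ccr7, and 6 of the 7 had the calcium channel subunit Cacnb3 (567 CPM), the T cell attractants Ccl5 (8462 CPM) and Ccl22 (1112 CPM), the lipid chaperone Fabp5 (8689 CPM) and Irf8 (1497 CPM). The NF-kB subunit gene Relb was in 5 and the inhibitory ligand Cd274 (PD-L1) in 5. Their Cd74 was at 8235 CPM. The 11 other cells had 1 to 11 UMIs of Ccr7, no UMI of Fscn1, Cacnb3 or Nudt17, and Cd74 at 24145 CPM. All 11 had Il1b (8631 CPM), and the group held Cxcl2 at 3520 CPM (5 cells), the CCR4 ligand Ccl17 at 2592 CPM (5 cells), Cxcl9 at 1290 CPM (4 cells), the fungal lectin Clec4n at 904 CPM (5 cells) and Inhba at 868 CPM (3 cells). In the Fscn1 cells Il1b was at 4378 CPM in 4 of 7, and Ccl17 at 1157 CPM in 4. Of the migratory list, 19 of 22 genes outside the gate had their highest CPM in the Ccr7 subset, with a sum of 11947 CPM against 3333 in Cd209a cells and 1329 in cDC1-like cells.

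These Ccr7 sets were uneven over libraries. The Fscn1 cells came 0, 5 and 1 from K/B.g7 valves at 3, 8 and 25 weeks and 0, 1 and 0 from B.g7 valves. The 11 others came 0, 9 and 1 from K/B.g7 and 0, 0 and 1 from B.g7. Of these 18 cells, 14 came from the 8-week K/B.g7 library, which also held the most dendritic cells.

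**Figure D2:**
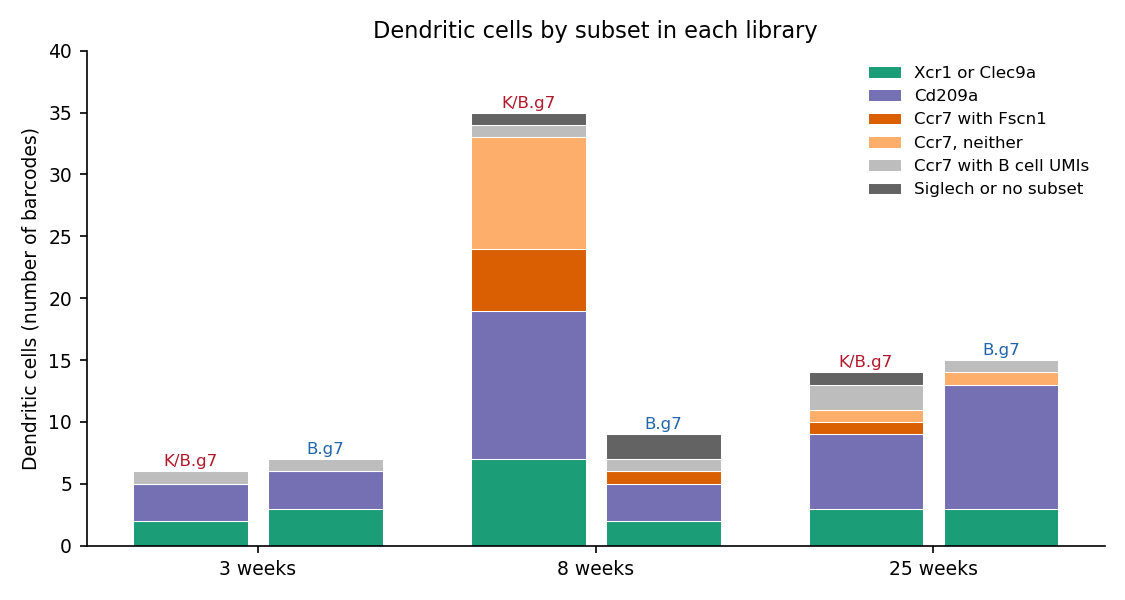
Bars give the number of dendritic cells per library, stacked by the gate gene that led and, for Ccr7, by Fscn1 and B cell UMIs, with K/B.g7 left of B.g7 at 3, 8 and 25 weeks. The 8-week K/B.g7 bar reaches 35 cells, of which 15 were led by Ccr7, and the other bars reach 6 to 15.

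The share of cells led by Ccr7 was higher in K/B.g7 at every age, at 16.7, 42.9 and 28.6% in K/B.g7 libraries of 3, 8 and 25 weeks, against 14.3, 22.2 and 13.3% in B.g7 ones. No subset share passed the test, which does not use the pairing by age. Cells led by Ccr7 were 29.4 ± 13.1% of the dendritic cells in K/B.g7 libraries and 16.6 ± 4.88% in B.g7 libraries (SD, n = 3 each), which is 12.8 points more (two-sided exact permutation p = 0.2, adjusted 0.6 over the 3 subsets). Without the cells that held B cell transcripts, the Ccr7 shares were 0, 41.2 and 16.7% in K/B.g7 libraries at 3, 8 and 25 weeks and 0, 14.3 and 7.14% among B.g7 cells (exact permutation p = 0.5). The cDC1-like share was 24.9 ± 7.32% in K/B.g7 libraries and 28.4 ± 12.6% in B.g7 (SD, n = 3 each; exact permutation p = 0.7, adjusted 0.9). The Cd209a share was 42.4 ± 7.87% in K/B.g7 libraries and 47.6 ± 17.2% in B.g7 (SD, n = 3 each; exact permutation p = 0.9, adjusted 0.9). With 3 libraries against 3, the smallest p this test can give is 0.1, and each share rests on 6 to 35 cells.

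Dendritic cells were rare in every library, and their share was higher in the K/B.g7 library at 8 weeks and lower at 3 and 25 weeks. In K/B.g7 valves they were 0.105, 0.376 and 0.0695% of the barcodes kept at 3, 8 and 25 weeks, with exact 95% intervals of 0.0385 to 0.228, 0.262 to 0.522 and 0.0380 to 0.117%. In B.g7 valves they were 0.185, 0.156 and 0.171%, with intervals of 0.0746 to 0.382, 0.0713 to 0.296 and 0.0956 to 0.281%. The intervals cover counting error only, and those of the genotypes overlapped at each age. The 8-week K/B.g7 library was the highest of the 6 and the 25-week K/B.g7 library the lowest, and the B.g7 libraries lay between them. K/B.g7 minus B.g7 was -0.0807, 0.22 and -0.101 percentage points at 3, 8 and 25 weeks. Over the ages the mean was 0.183 ± 0.167% in K/B.g7 libraries and 0.171 ± 0.0148% in B.g7 (SD, n = 3 each; exact permutation test, two-sided p = 1). Without the 8-week K/B.g7 library the difference of the means was -0.0836 points.

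Depth and the denominator moved these shares. When every barcode was thinned to 1500 UMIs and shallower ones left out, 1, 12 and 7 dendritic cells remained in K/B.g7 libraries and 5, 3 and 3 in B.g7, which are shares of 0.0189, 0.146 and 0.0393% in K/B.g7 libraries and 0.150, 0.0619 and 0.0366% in B.g7. Per barcode with a Ptprc UMI, dendritic cells were 7.79, 4.87 and 2.24% in K/B.g7 libraries and 16.3, 3.56 and 2.94% in B.g7. Per 100 C1q macrophages, counted by the same filters with at least 5 UMIs of the C1q genes, there were 12.2, 25.2 and 25.5 in K/B.g7 libraries and 26.9, 18.8 and 26.3 in B.g7. Macrophages numbered 139 in the 8-week K/B.g7 library and 48 in the B.g7 one, so the excess of dendritic cells at that age was accompanied by more macrophages, and the ratio to macrophages was 25.2 in K/B.g7 cells against 18.8 in B.g7.

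**Figure D3:**
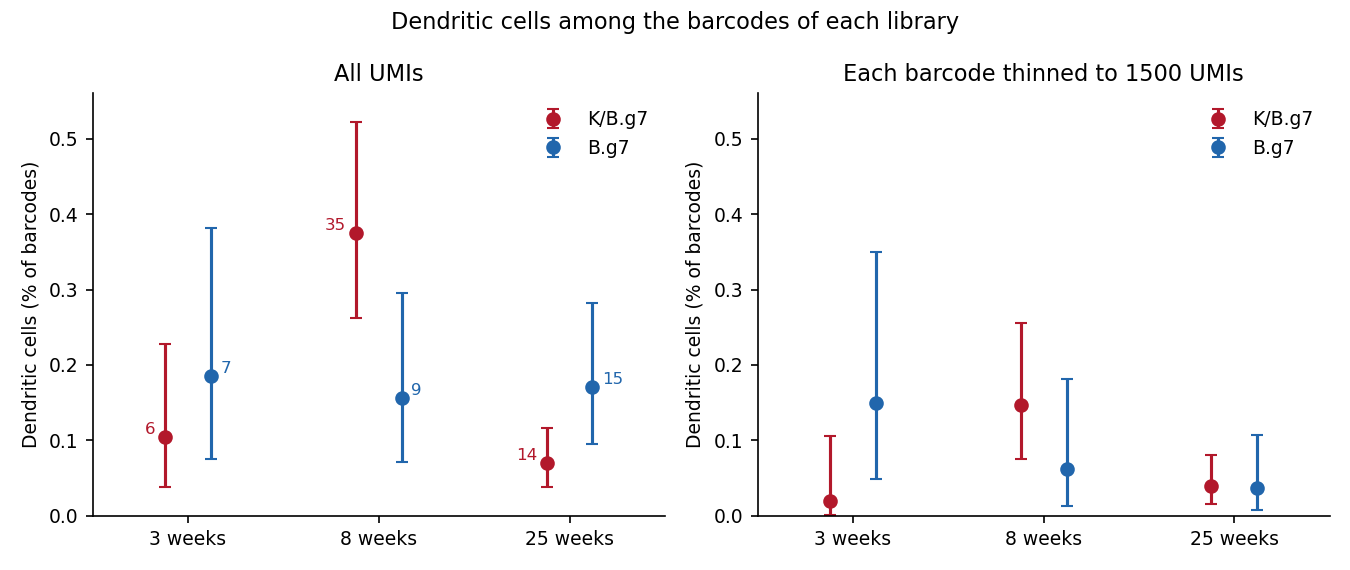
Points show dendritic cells as a percentage of barcodes in each library at 3, 8 and 25 weeks, K/B.g7 (red) left of B.g7 (blue), with exact 95% intervals as bars, from all UMIs (left, with the number of cells beside each point) and after thinning each barcode to 1500 UMIs (right). From all UMIs, the 8-week K/B.g7 point (0.376%) is the highest, and the 25-week K/B.g7 point (0.0695%) the lowest.

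Dendritic cells of K/B.g7 valves held more of the chemokine transcript Cxcl2 and of cell cycle transcripts such as Hmgb2 and Ube2c in each of the 3 libraries than those of any B.g7 library, but no gene passed the test across all genes, and at 3 weeks the excess of each came from 1 cell. UMIs were summed over the dendritic cells of each library, and K/B.g7 was set against B.g7 with age as a block. Of 796 genes tested, 0 (0%) passed an adjusted p of 0.05 by edgeR's quasi-likelihood test with Benjamini-Hochberg adjustment, and the lowest adjusted p was 0.0993. At an unadjusted p under 0.05 there were 34 genes (4.27%), and DESeq2 called 2, Cxcl2 and Hmgb2. The fitted change was above 0 for 51.8% of the genes, and the median was 0.01 on the log2 scale. In 5.91% of the genes all 3 K/B.g7 libraries lay above all 3 B.g7 libraries, and in 4.65% they lay below. The call count rests on which libraries are used, since 9 of 556 genes passed without the 8-week pair and 12 of 698 without the 25-week pair. The genes described next are those with the smallest p and the same direction at each age.

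Cxcl2, a chemokine gene whose product attracts neutrophils (mm10 chr5:90903871-90905938), had 959, 742 and 2220 CPM in K/B.g7 dendritic cells at 3, 8 and 25 weeks and 170, 38.8 and 566 CPM in B.g7 ones. Each K/B.g7 library was above each B.g7 library, with means of 1307 ± 798 and 258 ± 274 CPM (SD, n = 3 each). The fitted log2 fold change was 2.66 ± 0.45 (SE), with an adjusted p of 0.0993 by edgeR's quasi-likelihood test. Few cells made this level, since 1, 7 and 3 cells had the gene in K/B.g7 libraries and 2, 1 and 3 in B.g7. Leaving out the highest cell of each library gave 0, 355 and 546 CPM in K/B.g7 libraries and 39.0, 0 and 19.6 CPM in B.g7, so the 3-week direction rested on 1 cell. Whether Cxcl2 passed depended on the setting. Its edgeR adjusted p was 0.0168 with the 8 B-cell-transcript cells left out and 0.0268 without likely doublets, but 0.702 with at least 3 gate UMIs, 0.795 with fewer than 2 C1q UMIs and 0.999 with no age block. With an age left out it was 0.552 without 3 weeks, 0.00171 without 8 weeks and 2.26e-06 without 25 weeks. With the cells led by Ccr7 or Siglech left out, Cxcl2 was not among the 607 genes tested. In that setting 0 genes passed, and the lowest edgeR adjusted p was 0.845. Of the 436 Cxcl2 UMIs, the Ccr7 cells with Fscn1 held 24, and those with neither Fscn1 nor B cell transcripts held 292.

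Several of these genes belong to the cell cycle. Hmgb2, a chromatin protein abundant in dividing cells (chr8:57511907-57515999), had 701, 687 and 1563 CPM in K/B.g7 libraries and 170, 271 and 91.3 CPM in B.g7. The groups did not overlap, and the fitted log2 change was 2.46 ± 0.53 (SE; edgeR adjusted p = 0.225). One cell held 17 of the 19 UMIs of the 3-week K/B.g7 library. Without the highest cell of each library the values were 100, 468 and 616 CPM in K/B.g7 libraries and 123, 196 and 69.6 CPM in B.g7, so the groups then overlapped and the 3-week direction turned. It was found in 33 of 55 cells in K/B.g7 libraries and 17 of 31 in B.g7. Ube2c, which drives exit from mitosis, had 184, 190 and 213 CPM in K/B.g7 libraries and 0, 25.8 and 9.13 CPM in B.g7, from 6 and 2 cells. Its fitted log2 change was 3.69 ± 0.73 (SE; edgeR adjusted p = 0.184), and without the highest cell of each library 0, 102 and 20.5 CPM were left in K/B.g7 libraries and 0 in each B.g7 one. Stmn1, a microtubule regulator, had 664, 162 and 373 CPM in K/B.g7 libraries and 33.9, 116 and 9.13 CPM in B.g7, from 10 and 5 cells, and without the highest cells 0, 76.2 and 226 CPM were left in K/B.g7 libraries and 0, 28.0 and 0 CPM in B.g7. All 4 tested genes of the 15-gene proliferation list had a fitted change above 0 and an unadjusted p under 0.05, with a median of 2.49 against 0.01 over all genes tested. None passed the adjusted threshold. Ube2c and Stmn1 passed the low-count filter only through the K/B.g7 libraries, where they were high. Their direction was thus largely set by the filter, so the count above 0 and the median cannot serve as support. The summed list had 3063, 2282 and 3677 CPM in K/B.g7 libraries and 509, 1641 and 301 CPM in B.g7. Cells with Mki67 or Top2a, markers of cycling, were 1 of 6, 7 of 35 and 5 of 14 in K/B.g7 libraries and 0 of 7, 3 of 9 and 2 of 15 in B.g7, so the share of such cells was higher in the K/B.g7 libraries of 3 and 25 weeks and lower in that of 8 weeks. By subset they were 5 of the 20 cDC1-like cells, 8 of the 37 Cd209a cells and 4 of the 25 Ccr7 cells.

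The other genes described by the same rule were spread over several functions. The small heat shock protein gene Hspb1 had 996, 549 and 1670 CPM in K/B.g7 libraries and 67.9, 349 and 237 CPM in B.g7 (log2 change 2.11 ± 0.53, SE; edgeR adjusted p = 0.469). Ier3, a survival gene of the early response, had 184, 549 and 266 CPM in K/B.g7 libraries and 33.9, 77.5 and 219 CPM in B.g7, and the groups overlapped. The inflammatory chemokine gene Ccl4 had 1550, 1505 and 4387 CPM in K/B.g7 libraries and 984, 672 and 1989 CPM in B.g7, also with overlap. The ubiquitin-conjugating enzyme gene Ube2s was at 195 to 406 CPM in K/B.g7 libraries and 91.3 to 136 in B.g7. The endosomal nuclease gene Pld4 was the one gene among the 10 that was lower, with 73.8, 93.2 and 88.8 CPM in K/B.g7 libraries and 407, 220 and 173 CPM in B.g7 (log2 change -1.41 ± 0.47, SE; edgeR adjusted p = 0.941). Ube2s passed the low-count filter only through the K/B.g7 libraries, and Pld4 only through the B.g7 libraries. The direction of both was thus largely set by the filter.

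**Figure D4:**
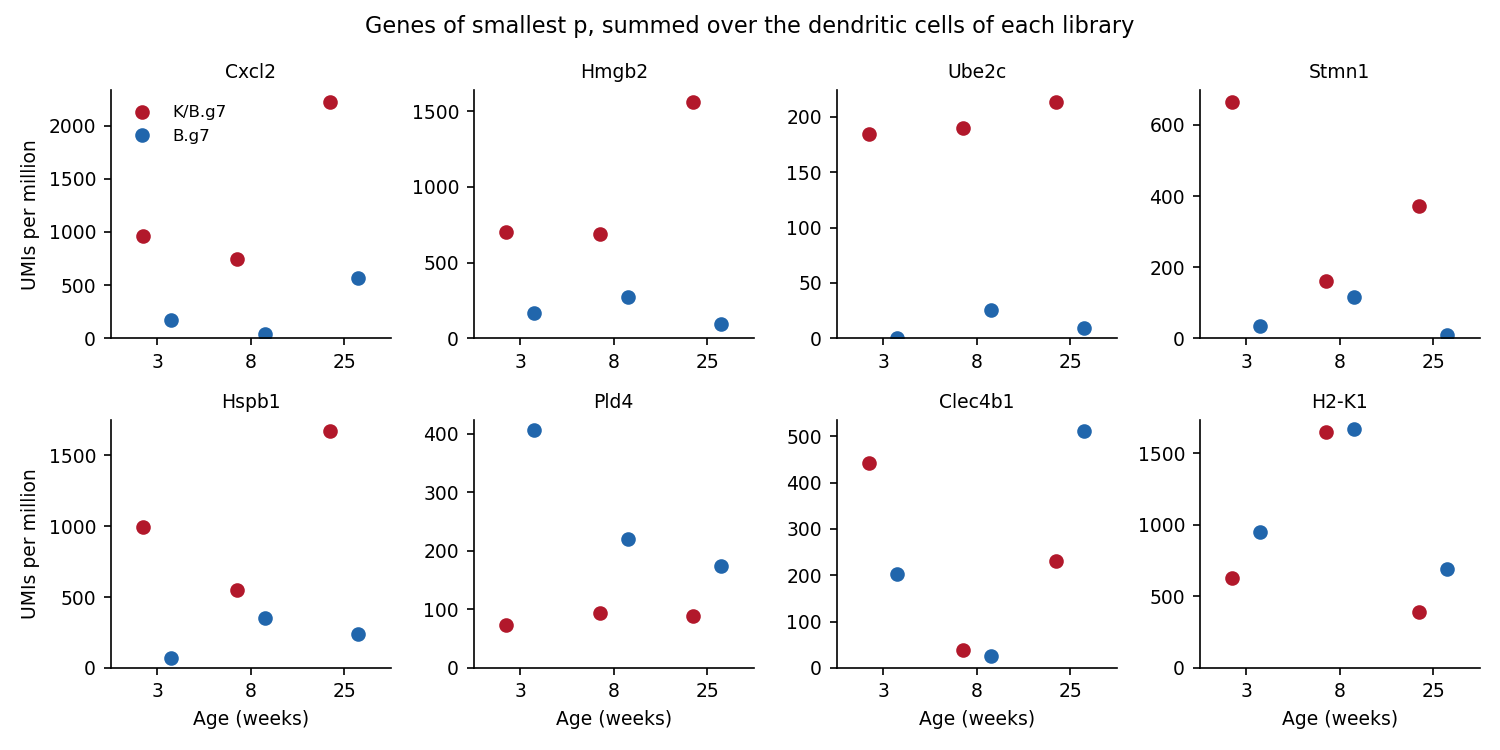
Each panel shows one gene summed over the dendritic cells of each library, in CPM against age in weeks, with 1 point per library and K/B.g7 (red) left of B.g7 (blue) at each age. The K/B.g7 points of Cxcl2, Hmgb2, Ube2c, Stmn1 and Hspb1 lie above all B.g7 points and those of Pld4 below, while Clec4b1 is lowest and H2-K1 highest at 8 weeks in both genotypes. Ube2c, Stmn1 and Pld4 passed the low-count filter only through the genotype in which they were high.

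No gene of the fixed lists passed the adjusted threshold between genotypes, and most members were too sparse to test. Over all 796 genes tested, 51.8% had a fitted change above 0 and 4.27% had an unadjusted p under 0.05. Of the chemokine ligands, 6 of 13 could be tested and all 6 had a fitted change above 0, with a median of 1.03, and 3 of them (Cxcl2, Ccl4 and Cxcl16, the ligand of CXCR6, at 1.02 ± 0.37) had an unadjusted p under 0.05. Cxcl2 and Ccl4 had already been picked by smallest p in these same data. Of the 7 MHC class II genes tested, 4 were above 0 with a median of 0.02, and without Cd74, which the gate read, 3 of 6 were above 0. The 12 genes of the class II list, with Cd74 and the processing proteases included, summed to 81584, 49734 and 47692 CPM in K/B.g7 libraries and 52521, 38458 and 89919 CPM in B.g7. Of the 6 MHC class I genes tested, 1 was above 0 (median -0.17), and of the 6 NF-kB genes also 1 (median -0.48), with the adhesion gene Icam1 at an unadjusted p under 0.05. The costimulation list had 3 tested genes, of which Tnfsf9 (4-1BB ligand) had a log2 change of 1.15 ± 0.45. The 3 tested cDC1 genes had a median of -0.29, the 5 cDC2 genes 0.28 and the 7 migratory genes 0.26, with no unadjusted p under 0.05 in any of the 3 lists. The gate read Cd209a and Ccr7, without which the medians were 0.42 over 4 cDC2 genes and 0.10 over 6 migratory genes. The type I interferon and interferon gamma lists had 1 tested gene each.

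Some RNA of other cells moved with genotype. The 4 mural genes Myh11, Rgs5, Acta2 and Tagln summed to 111, 110 and 355 CPM in the dendritic cells of K/B.g7 valves and 0, 0 and 18.3 CPM in those of B.g7 valves. The 6 fibroblast genes, which were partly limited by the gate, summed to 36.9, 690 and 1457 CPM in K/B.g7 libraries and 102, 51.7 and 329 CPM in B.g7. The female-expressed Xist was found without a Y-linked gene in 35 of 55 K/B.g7 cells and 8 of 31 B.g7 cells, and Y-linked genes without Xist in 8 of 55 and 10 of 31. Libraries therefore held cells of both sexes, in proportions that differed. The part of other cells' RNA and of sex in the values above was not tested.

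At 8 weeks, where K/B.g7 dendritic cells were most numerous, the 2 libraries were also read alone. Of 1350 genes with at least 20 UMIs in the higher library, 338 (25%) were more than 2-fold higher in the K/B.g7 library and 21 (1.56%) more than 2-fold lower. With 289719 UMIs in the K/B.g7 library against 77409 in the B.g7 one, a gene reached 20 UMIs at a lower level on the K/B.g7 side, so the shares of the 2 directions cannot be set against each other. There is no replicate at a single age, and the intervals given here are 95% intervals for counting error. Fabp5 (chr3:10012548-10016607) had 2278 CPM in the K/B.g7 library and 38.8 CPM in B.g7, from 22 of 35 and 2 of 9 cells, a ratio of 58.8 (20.03 to 286). Ccl17 (chr8:94810453-94812036) had 1208 CPM from 16 of 35 cells in the K/B.g7 library and no UMI in the 9 cells of B.g7. Taking 3 UMIs as the limit that a count of 0 allows, the ratio was 31.2, and the lower 95% limit of the ratio was 25.2. Over all libraries, the 7 Ccr7 cells with Fscn1 held 383 of the 689 Fabp5 UMIs and 51 of the 398 Ccl17 UMIs. The 11 Ccr7 cells with neither Fscn1 nor B cell transcripts held 217 and 215. The 8-week K/B.g7 library held 5 of these 7 cells and 9 of these 11. The part of this subset in the ratios was not tested. Fcgr2b, the inhibitory Fc receptor for IgG, had 266 CPM in 17 of 35 cells in the K/B.g7 library and 12.9 CPM in 1 of 9 cells in B.g7, a ratio of 20.6 (3.58 to 823).

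The summed type I interferon list had 880 CPM in the K/B.g7 library and 1111 CPM in the B.g7 one at 8 weeks. Among the single genes with the largest ratios, the interferon-induced Ifitm1 had 870 CPM in the K/B.g7 library and 12.9 CPM in B.g7, with 54.4% of its K/B.g7 UMIs in 1 cell. Cxcl9, an interferon gamma target that attracts CXCR3-bearing T cells, had 428 CPM from 6 cells in the K/B.g7 library and 12.9 CPM from 1 cell in B.g7. Cxcl2 had 742 CPM in the K/B.g7 library and 38.8 CPM in B.g7, with 54.4% of its K/B.g7 UMIs in 1 cell. The matrix genes Timp1 (269 CPM in the K/B.g7 library and 12.9 in B.g7) and Dcn (480 CPM in the K/B.g7 library and 25.8 in B.g7) were also among the largest ratios, Dcn being a fibroblast gene that the gate used. In the K/B.g7 library 1 cell held 60.3% of the Timp1 UMIs, and 1 cell held 36.0% of the Dcn UMIs. On the lower side, Ly6d, Trac, Apol7c and Ccl5 came mostly from single B.g7 cells. The plasmacytoid-type cell held 96.8% of the Ly6d and 76.2% of the Trac UMIs. The single Fscn1 cell of that library held all of its Apol7c and Ccl5 UMIs, and Ccl5 was at 459 CPM in K/B.g7 cells against 3113 CPM in B.g7. The oxidase subunit gene Ncf1 had 82.8 CPM in the K/B.g7 library and 336 in B.g7, a ratio of 0.247 (0.136 to 0.447), and the lysosomal thioesterase gene Ppt1 had 155 CPM in the K/B.g7 library and 594 in B.g7, a ratio of 0.261 (0.169 to 0.403). In the B.g7 library Ncf1 came from 4 cells, with 65.4% of its UMIs in 1 cell. Ppt1 came from 3 cells there, with 50% in 1 cell. Over all libraries Ppt1 was at 811 CPM in Xcr1 or Clec9a cells, against at most 58.8 CPM in Cd209a or Ccr7 cells.

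Dendritic cells at 25 weeks held more transcripts of the lectin Clec4b1 and of the chemokine Ccl3, and fewer of the class I molecule H2-K1, than those at 8 weeks in both genotypes, although no gene passed the test. Age was compared at 25 against 8 weeks in the same fit, with both genotypes. Of 796 genes, 0 (0%) passed an adjusted p of 0.05 by edgeR's quasi-likelihood test, where the lowest was 0.187. At an unadjusted p under 0.05 there were 53 (6.66%), and DESeq2 called 0. Clec4b1, a lectin of dendritic cells, had 231 and 511 CPM at 25 weeks in K/B.g7 and B.g7 libraries, against 38.0 and 25.8 CPM at 8 weeks, and 443 and 204 CPM at 3 weeks. Its log2 change was 3.48 ± 0.64 (SE; edgeR adjusted p = 0.187). The 8-week libraries were low for this gene in both genotypes. Ccl3, an inflammatory chemokine gene, had 1066 and 274 CPM at 25 weeks in K/B.g7 and B.g7 libraries, against 117 and 25.8 CPM at 8 weeks. Tnip3 had 817 and 602 CPM at 25 weeks, against 242 and 155 CPM at 8 weeks. The metallothionein gene Mt2 had 391 and 438 CPM at 25 weeks, against 100 and 0 CPM at 8 weeks. At 3 weeks Ccl3 had 148 and 407 CPM, Tnip3 664 and 780 CPM and Mt2 184 and 170 CPM. The 8-week library was thus the lowest of its genotype for each of these genes. In C1q macrophages Clec4b1 went from 15.2 and 52.6 CPM at 8 weeks to 60.6 and 231 CPM at 25 weeks. Ccl3 went there from 429 and 972 CPM to 1061 and 1187 CPM. Tnip3 fell there in K/B.g7 and rose in B.g7, and Mt2 did the reverse.

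The C-type lectins and the MHC class I genes each leaned one way with age. All 4 tested C-type lectins had a fitted change above 0 from 8 to 25 weeks (median 2.24, against -0.02 over all genes tested, of which 47.9% were above 0), and 3 of them, Clec4b1, Mgl2 (2.96 ± 0.91) and Cd209a (1.51 ± 0.49), had an unadjusted p under 0.05. Cd209a is a gate gene, and without it all 3 lectins left were above 0, 2 with an unadjusted p under 0.05 (median 2.96). Its opposite was Ccr7, also a gate gene, at -1.50 ± 0.55. Cells led by Cd209a were 6 of 14 in K/B.g7 libraries and 10 of 15 in B.g7 at 25 weeks, against 12 of 35 and 3 of 9 at 8 weeks. All 6 tested MHC class I genes were below 0 (median -0.97), and 4 had an unadjusted p under 0.05. H2-K1, a classical class I heavy chain, had 391 and 694 CPM at 25 weeks in K/B.g7 and B.g7 libraries, against 1646 and 1666 CPM at 8 weeks, and 627 and 950 CPM at 3 weeks. Its log2 change was -1.57 ± 0.38 (SE; edgeR adjusted p = 0.208). In C1q macrophages H2-K1 was also lower at 25 weeks, at 803 and 948 CPM in K/B.g7 and B.g7 libraries, against 2511 and 2403 CPM at 8 weeks. The light chain gene B2m (-0.91 ± 0.37) and the immunoproteasome genes Psmb8 (-1.27 ± 0.39) and Psmb9 (-1.03 ± 0.46) went the same way, and none of them passed the adjusted threshold. Class I genes of the H2 family are similar in sequence and may share reads.

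The last comparison asked whether genotype had the same effect in dendritic cells as in the 374 C1q macrophages of the same libraries. As a description, dendritic cells had more Cd24a (mean 266 CPM over libraries against 4.04 in macrophages), the aspartic protease gene Napsa (556 against 57.8), Tbc1d4 (272 against 16.4), Cytip (616 against 89.0) and the inhibitory receptor gene Btla (74.1 against 0, where Btla had no UMI in any macrophage sum). They had less of the apolipoprotein gene Apoe (136 against 8508 CPM) and of the platelet factor gene Pf4 (4.03 against 1857). The interaction of cell class and genotype was tested for 2022 genes, 85 (4.2%) had an unadjusted p under 0.05, and 7 (0.346%) passed an adjusted p of 0.05 by edgeR's quasi-likelihood test, 5 of them (0.247%) with a higher genotype effect in dendritic cells and 2 (0.0989%) with a lower one. In a trial with simulated dendritic cell counts beside the observed macrophage counts, this fit called 14 genes that had not been altered. Genotype effects in the observed macrophage counts can be among these 14, so the trial cannot give the fit's rate of false calls. The 7 calls therefore stand without a check on false calls. With at least 3 gate UMIs per dendritic cell 0 of 1933 genes passed, and 64 of the 1933 had an unadjusted p under 0.05. Without the 3-, 8- or 25-week pair 2 of 3317, 4 of 1664 and 31 of 2085 genes passed.

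For Cxcl2 the genotypes were ordered in opposite ways in the cell classes. Macrophages had 8107, 2891 and 2917 CPM in K/B.g7 libraries and 9041, 6088 and 8438 CPM in B.g7, whereas in dendritic cells the K/B.g7 value was the higher one at each age. The difference of the genotype effects was 3.59 ± 0.42 on the log2 scale (SE; edgeR adjusted p = 9.08e-05). It was 3.25 with at least 3 gate UMIs and 3.19 with fewer than 2 C1q UMIs, and passed in neither. Fabp5 had 111, 2278 and 302 CPM in K/B.g7 dendritic cells and 102, 38.8 and 27.4 CPM in B.g7 ones, while macrophages had 25.6, 1195 and 90.9 CPM in K/B.g7 libraries and 81.9, 1050 and 159 CPM in B.g7. The difference was 4.45 ± 0.58 (SE; edgeR adjusted p = 0.000269), and without the 8-week pair it was 3.25 and did not pass. Cells with Fabp5 were 28 of 55 in K/B.g7 libraries and 6 of 31 in B.g7. Of its 689 UMIs in dendritic cells, 383 were in the Ccr7 cells with Fscn1. Another 217 were in the Ccr7 cells with neither Fscn1 nor B cell transcripts.

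The further genes rested on few cells or on libraries at 0. Ccl17 had 480, 1208 and 35.5 CPM in K/B.g7 dendritic cells and 33.9, 0 and 292 CPM in B.g7 ones, and macrophages had 0, 112 and 0 CPM in K/B.g7 libraries and 0, 65.0 and 7.56 CPM in B.g7 (difference 7.98 ± 1.36, SE; edgeR adjusted p = 0.00803). Without the 8-week pair the difference was 0.80. Ccl17 was found in 18 of 55 K/B.g7 dendritic cells and 2 of 31 B.g7 ones. Of its 398 UMIs, 51 were in the Ccr7 cells with Fscn1 and 215 in those with neither Fscn1 nor B cell transcripts. Retnla, an alternative activation gene, was in only 5 dendritic cells, at 184, 228 and 0 CPM in K/B.g7 libraries and 1289, 0 and 748 CPM in B.g7, against macrophage values of 0, 389 and 0 CPM in K/B.g7 libraries and 10803, 68.1 and 9462 CPM in B.g7. Its difference of 10.06 was 5.58 without the 3-week pair, 4.92 with at least 3 gate UMIs and 6.44 by DESeq2, and passed in none of these. Ccl5 had 0, 459 and 0 CPM in K/B.g7 dendritic cells and 0, 3113 and 63.9 CPM in B.g7 ones, and 241 of its 381 UMIs came from 1 B.g7 cell. H2-M2 likewise had 18 of 21 UMIs in 1 B.g7 cell. For genes with libraries at 0, the fitted size depends on the small count added in fitting.

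**Figure D5:**
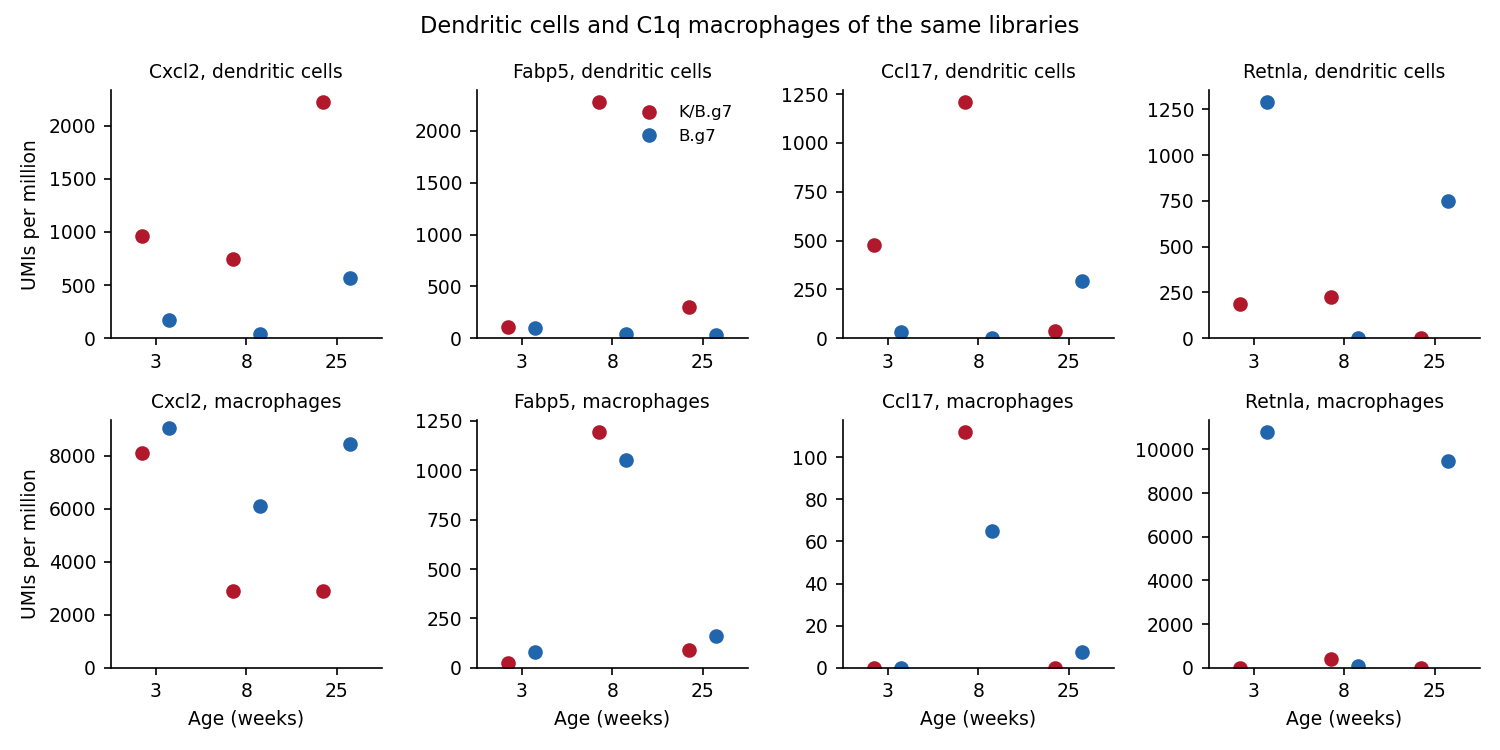
Panels plot CPM of Cxcl2, Fabp5, Ccl17 and Retnla against age in weeks, in dendritic cells (top) and C1q macrophages (bottom), with 1 point per library and K/B.g7 (red) left of B.g7 (blue) at each age. For Cxcl2 the K/B.g7 points lie above the B.g7 points in dendritic cells (742 to 2220 against 38.8 to 566 CPM), and in macrophages they run from 2891 to 8107 CPM in K/B.g7 libraries and from 6088 to 9041 CPM in B.g7.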

How the data were processed

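Viable cells of digested valves were sorted, and 3′ droplet libraries were made, 1 per genotype and age (6 libraries). Cell Ranger 3.1.0 and mm10 are named, per the submitters' processing notes. The deposited values are whole-number UMI counts per gene and barcode for 31053 genes, not normalized. Positions were taken from an mm10 annotation. The members and gene lists were chosen with earlier results of these data known.

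Counts were summed over the dendritic cells of each library and fitted with edgeR 4.0.16 (TMM scaling, low-count filter, quasi-likelihood test, genotype plus age as a block, adjusted p of 0.05 over all genes tested), with DESeq2 1.42.0 as an alternative (R 4.3.3, Python 3.11.15, scipy 1.17.1). A minimum of 20 dendritic cells per library, or 10, had been planned. Only the 25-week pair reached 10, which could not be fitted, so all 6 libraries were used, a choice made after seeing the data. The C1q macrophages (374) had at least 5 C1q UMIs and fewer than 2 gate UMIs. The interaction fit held library and cell class by age. The SE given with a fitted log2 change was derived from the test, as the size of the change divided by the square root of its F statistic. It is not an SE that the fit reported.

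Genes were named by a fixed rule: gate genes and subset markers, the 10 genes of smallest p with 1 sign at every age (8 for age), interaction calls by p, up to 4 tested members per list, and the 8 largest ratios per direction at 8 weeks with at least 50 CPM. Sex-linked, immunoglobulin, hemoglobin, ribosomal, mitochondrial and unnamed genes were left out of this choice. Of the genes named by the rule, 1 is not reported here. Other genes named as subset or set descriptions were chosen after their values were seen. Exact permutation tests were two-sided. Intervals are 95% exact binomial and cover counting error only. The scripts were tested on simulated data. For the interaction fit the macrophage counts were the observed ones, so its rate of false calls could not be measured. No doublet caller was run. An alternative left out 7 cells as likely doublets, those with 2 or more UMIs over Pecam1, Cdh5, Kdr, Myh11, Rgs5, Msln, Trac, Ms4a1, Ncr1 and Cpa3 or over 3 times the median depth of their library's members. The labels pair libraries by age, and the deviations of same-age libraries from their genotype means correlated at 0.217, 0.131 and 0.0561 over 796 genes at 3, 8 and 25 weeks.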

Additional observations from a re-analysis of the deposited data

Results flagged for a closer look

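The test of whether genotype acted differently in dendritic cells and C1q macrophages (edgeR's quasi-likelihood test of the interaction) passed for 7 of 2022 genes. Its rate of false calls is not known, since the trial on simulated dendritic cell counts used the observed macrophage counts. On the log2 scale the difference was 3.59 for Cxcl2, 4.45 for Fabp5, 10.06 for Retnla, 7.98 for Ccl17 and 8.36 for the unnamed gene model Gm15056. For Retnla it was 5.58 without the 3-week pair, 4.92 with at least 3 gate UMIs and 6.44 by DESeq2, and for Ccl17 0.80 without the 8-week pair, none of which passed. It was -3.58 for Ccl5 and -5.24 for H2-M2, where 1 B.g7 cell at 8 weeks held 241 of 381 and 18 of 21 UMIs.

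The difference in the share of dendritic cells had opposite signs at different ages. K/B.g7 minus B.g7 was -0.0807 percentage points at 3 weeks, 0.22 at 8 weeks and -0.101 at 25 weeks. The counting intervals of the genotypes overlapped at each age, and after thinning to 1500 UMIs the 25-week values were 0.0393% in the K/B.g7 library and 0.0366% in the B.g7 one, and that sign turned. With 1 library per genotype and age, the difference between ages was not tested.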

How the results depend on the processing

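Most counts and share differences depended on the processing, and the shares rest on 6 to 35 cells per library. The difference in dendritic cell share, 0.0126 percentage points, was -0.0146 after thinning to 1500 UMIs (exact permutation p = 0.6), -2.62 per barcode with Ptprc (exact permutation p = 0.8) and -0.0836 to 0.0695 when a library was left out, the lowest without the 8-week K/B.g7 one. The difference of the Xcr1 or Clec9a subset, -3.44 points, was 18.9 after thinning and -7.65 to 3.81 with a library left out, being above 0 without the 3-week B.g7 library. That of the Cd209a subset, -5.24 points, was -31.2 after thinning and -12.4 to 4.29 with a library left out, above 0 without the 25-week B.g7 library. That of the Ccr7 subset, 12.8 points, was 18.7 after thinning (exact permutation p = 0.7), 20.1 without likely doublets (exact permutation p = 0.1, the smallest possible) and 6.01 to 19.1 with a library left out.

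The 0 genes called between genotypes became 16 with no filter on low counts, 2 with DESeq2, 1 without likely doublets, 1 without cells holding B cell UMIs (chosen after seeing the data), and 0 to 12 when an age was left out. The 0 genes between 25 and 8 weeks became 10 with no filter, 4 with fewer than 2 C1q UMIs and 1 without cells holding B cell UMIs. Without the 3-week pair they were 0, and without the 8- or 25-week pair that contrast could not be fitted. The 7 interaction genes became 14 with no filter, 2 with DESeq2, 0 with at least 3 gate UMIs, 1 with fewer than 2 C1q UMIs, 15 without likely doublets, and 2 to 31 when an age was left out. Without the replicate block of age, 0 genes were called between genotypes and 25 had an unadjusted p under 0.05, against 34 with it. The cause of these shifts was not tested. The fitted direction of the 10 genotype, 8 age and 6 interaction genes was the same in all 102, 62 and 58 alternative values. The genotype and age genes had been chosen by smallest p and 1 sign in these same data, and the interaction genes by smallest p. This agreement was therefore largely set in advance. Alternatives in which a gene was not tested are not counted.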
